A study of Mus musculus with 6 samples.

Results

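Succinyl-CoA ligase and the main enzymes of the tricarboxylic acid (TCA) cycle were followed in the hippocampi of mice with an added Rbfox1 allele. The set holds 9 genes, namely Suclg1, Suclg2, Sucla2, Ogdh, Dlst, Idh3a, Fh1, Mdh2 and Cs. They were selected on the name of the isoform in the deposited counts, and account for 9 of 53354 gene symbols and for 57 of 133944 isoforms. Among them Suclg1 had been chosen by its measured value, since its difference between the genotypes was the first of all genes by adjusted p in these same mice. Its values are therefore given as a description with no test. The other 8 genes were picked as its partner subunits and as steps of the same cycle, and their differences were tested. The question was by how much they differed between the genotypes.

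RNA was measured in 3 N-cre mice, which carry the Nes-Cre transgene alone and serve as controls, and in 3 N-cre;Fox1 animals, which add 1 R26-Rbfox1 flox allele to the same Cre (R26-Rbfox1 +/flox). All were C57BL/6 and 3 months old, and each mouse gave 1 library of total hippocampal RNA. In N-cre;Fox1 mice a Rbfox1 cDNA behind a CAG promoter and a loxP-flanked STOP cassette was placed in the Gt(ROSA)26Sor locus on chromosome 6, by targeting in embryonic stem cells of another strain and backcrossing to C57BL/6. Cre under the nestin promoter, which acts in neural precursors, removes the STOP. Both genotypes carry Cre, and the controls lack the R26-Rbfox1 allele. DNA of the other strain may remain beside the allele and was not measured. This design cannot tell it apart from the added Rbfox1. Since whole hippocampi were sequenced, fewer cells of a type and less RNA per cell cannot be told apart.

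The TCA cycle runs in the mitochondrial matrix and oxidizes acetyl-CoA for the respiratory chain. Succinyl-CoA ligase turns succinyl-CoA into succinate and makes a nucleoside triphosphate at the substrate level. It is a dimer of an alpha subunit, encoded by Suclg1, with either of a pair of beta subunits. With the Sucla2 product the enzyme forms ATP, and with the Suclg2 product it forms GTP. In the brain the ADP-forming enzyme is known to be the neuronal form, and Suclg2 is known to be low in neurons.

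The expected counts, which are the read pairs assigned to annotated isoforms, summed to 40463587 to 62141336 per library in controls and 54352011 to 59362399 in N-cre;Fox1 animals. Counts given below are normalized for library size, and the differences are log2 fold changes of N-cre;Fox1 over N-cre. Rbfox1 itself, summed over the annotated isoforms of the gene, stood at 14642 ± 422 (SD) in controls and 14759 ± 1210 (SD over n = 3) in N-cre;Fox1 animals, and the genotypes overlapped. Their difference of 0.01 (log2) had a 95% interval from -0.12 to 0.14, and the sum is no check of the genotype labels in either direction. Markers of CA1, CA3 and dentate gyrus cells were present in every library, at summed counts of 43117 to 44459 in controls and 39495 to 45343 in N-cre;Fox1 animals. Among these 8 markers Wfs1, a CA1 marker, was lower without overlap (means of 9835 and 7708, log2 fold change -0.35, adjusted p 0.813), while the dentate gyrus marker C1ql2 (0.12, adjusted p 0.799) and Zbtb20 (0.10, adjusted p 0.782) had an unadjusted p under 0.05 and overlapped. Of all genes tested, 6.11% were lower without overlap, and 3.59% were higher with a p below 0.05 before adjustment (edgeR). The part of Wfs1, C1ql2 and Zbtb20 in the results below was not tested. Choroid plexus markers ranged widely within both genotypes, from 1388 to 117415 and from 1437 to 264390. Each marker was highest in N-cre replicate 3 and N-cre;Fox1 replicate 2, where Ttr had counts of 109727 and 248995. In the other mice Ttr had counts from 271 to 664.

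Suclg1 RNA was higher in all 3 N-cre;Fox1 mice, while the counts of both of its beta subunit partners overlapped between the genotypes. Suclg1 (ENSMUSG00000052738.14) lies on the plus strand of chromosome 6 from 73248382 to 73276911 in mm10. Its normalized counts were 4454, 4226 and 3985 in N-cre replicates 1, 2 and 3, and 6442, 6317 and 6301 in N-cre;Fox1 replicates 1, 2 and 3. The lowest N-cre;Fox1 mouse lay well above the highest control. This gave a log2 fold change of 0.59 ± 0.0428 (SE), that is a 1.5-fold higher mean count. As the values behind the choice, Suclg1 had an adjusted p of 0.00103, the last gene inside the threshold of 0.05 was Sspn at 0.0155, and the first gene outside was Amy2a5 at 0.0829 (edgeR's quasi-likelihood test over all genes). The coefficient of variation between mice was 5.56% in controls and 1.21% in N-cre;Fox1 animals. Mice with Xist counts above 1000 were replicate 1 of each genotype. Suclg1 was higher by 0.53 on the log2 scale between these 2 mice and by 0.62 between the means of the other 4.

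Nearly all Suclg1 RNA came from the full-length coding isoform. Suclg1-201 (ENSMUST00000064740.8), with 9 exons and 1519 nt, held 98.9% ± 0.136 (SD, n = 3) of the gene's counts in controls and 99.1% ± 0.200 (SD over n = 3) in N-cre;Fox1 animals. Its counts were 4407, 4188 and 3939 in controls and 6389, 6276 and 6218 in N-cre;Fox1 animals, a log2 fold change of 0.59 ± 0.0474 (SE). The difference in the gene sum was thus carried by this isoform. The retained intron isoforms Suclg1-203 and Suclg1-205 passed the filter on low counts too. Suclg1-203 had counts of 13.6, 18.8 and 10.3 against 5.84, 8.10 and 15.9, and Suclg1-205 had 40.8, 17.6 and 29.7 against 41.9, 33.3 and 51.4. Both overlapped between the genotypes. The remaining Suclg1 isoforms had too few counts to pass it, and 1 of the 6 was at 0 in every mouse.

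Suclg2 (ENSMUSG00000061838.7), the beta subunit of the GDP-forming enzyme, also lies on chromosome 6, on the minus strand from 95473009 to 95718800. Its normalized counts were 890, 794 and 943 in controls and 840, 974 and 803 in N-cre;Fox1 animals, so that the genotypes overlapped throughout. The log2 fold change was -0.01 ± 0.0880 (SE) with adjusted p = 0.997. The 95% interval reached from -13.0% to 14.1%, the widest of the 8 tested genes.

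Sucla2 (ENSMUSG00000022110.13), the beta subunit of the ADP-forming enzyme, lies on the plus strand of chromosome 14 from 73525319 to 73596142. It gave counts of 6651, 6834 and 6579 in controls and 7065, 6450 and 6649 in N-cre;Fox1 animals, again with overlap. The log2 fold change was 0.01 ± 0.0408 (SE) with adjusted p = 0.992, and the interval ran from -5.61% to 6.99%.

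**Figure D1:**
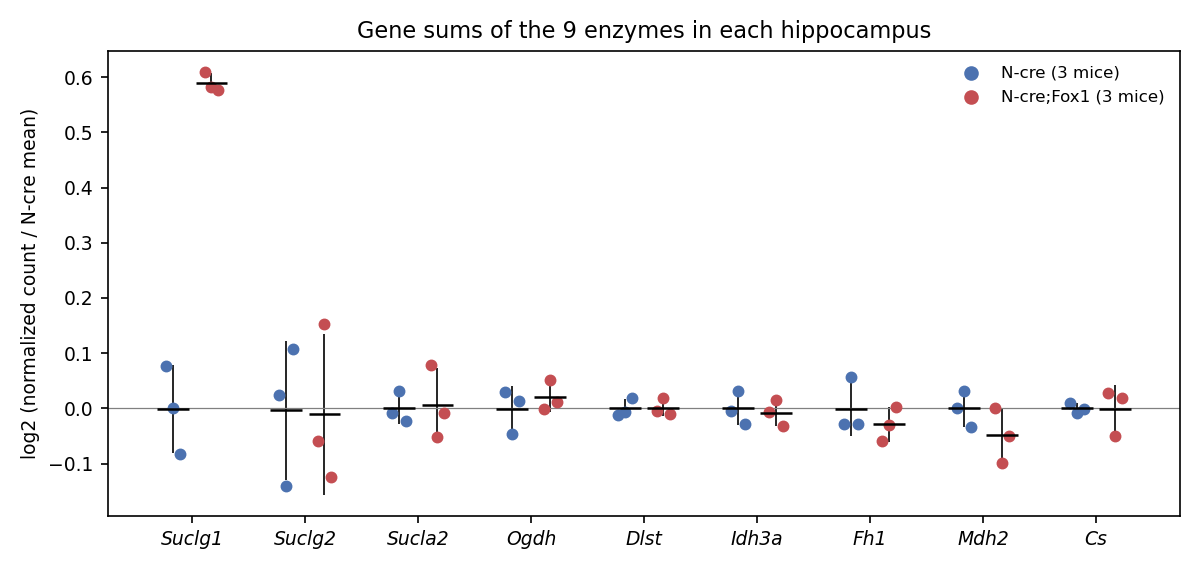
Normalized counts of the 9 genes in each mouse, as log2 of the count over the N-cre mean of that gene. Points are mice, horizontal bars are means and vertical lines are SD over 3 mice per genotype. Suclg1 in N-cre;Fox1 animals stands near 0.59, apart from all N-cre mice, and the mice of the 2 genotypes overlap for the other 8 genes.

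The plot of counts by mouse shows the same picture for the enzymes that precede and follow the ligase. Ogdh encodes the E1 subunit and Dlst the E2 subunit of the 2-oxoglutarate dehydrogenase complex, which makes the succinyl-CoA that the ligase uses. Ogdh had counts of 14276, 13544 and 14117 in controls and 13964, 14485 and 14091 in N-cre;Fox1 animals, with a log2 fold change of 0.02 ± 0.0361 (SE) with adjusted p = 0.972. Dlst was the steadiest of the pair, at 6599, 6623 and 6746 in controls and 6632, 6743 and 6609 in N-cre;Fox1 animals. Its log2 fold change was 0.00 ± 0.0324 (SE) with adjusted p = 0.998, and the interval ran from -4.78% to 5.20%. Idh3a encodes the catalytic alpha subunit of the NAD-dependent isocitrate dehydrogenase, the step before this complex. It gave 9803, 10054 and 9647 in controls and 9793, 9932 and 9617 in N-cre;Fox1 animals, a log2 fold change of -0.01 ± 0.0334 (SE) with adjusted p = 0.990.

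The enzymes that close the cycle overlapped between the genotypes as well. Fh1 encodes fumarate hydratase and stood at 3397, 3604 and 3397 in controls and 3325, 3396 and 3473 in N-cre;Fox1 animals, with a log2 fold change of -0.03 ± 0.0368 (SE) with adjusted p = 0.961. Mdh2, the mitochondrial malate dehydrogenase, had the furthest value from 0 among the 8 genes. Its counts were 13994, 14296 and 13648 in controls and 13993, 13057 and 13506 in N-cre;Fox1 animals, a log2 fold change of -0.05 ± 0.0381 (SE) with adjusted p = 0.912, with an interval from -8.80% to 2.53%. Cs, the citrate synthase that brings acetyl-CoA into the cycle, gave 15030, 14848 and 14924 in controls and 15220, 14433 and 15138 in N-cre;Fox1 animals. Its log2 fold change rounded to 0.00 ± 0.0358 (SE) with adjusted p = 0.999. Csl, a gene copy of Cs elsewhere in the genome with which reads could be shared, had a mean of 17.5 expected counts.

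Of these 8 genes, 0 passed an adjusted p of 0.05 and 0 passed an unadjusted p of 0.05 in edgeR's quasi-likelihood test, where 0.0264% and 6.19% of the 18924 genes tested did. DESeq2's Wald test and limma-voom called 0 of the 8 as well. The genotypes were free of overlap in 0 of the 8, beside 12.2% of all genes. The 8 log2 fold changes lay between -0.05 and 0.02, with 3 above and 5 below 0. The intervals reached from -13.0% to 14.1% for Suclg2, and for the other genes as low as -8.80% (Mdh2) and as high as 7.23% (Ogdh). Differences within these intervals were not detectable with 3 mice per genotype.

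The genes are not expressed at one level, and the place of Suclg1 among them differed between the genotypes. Levels per length were obtained by dividing the expected counts by the annotated isoform lengths. They were scaled to a sum of 1000000 over all isoforms with an annotated length, so that they can be compared between genes. In N-cre mice Suclg1 stood at 141, 133 and 127 of these units, the sixth of the 9, below every value of Sucla2 (159, 170 and 163) and above every value of Dlst (122, 123 and 126). In N-cre;Fox1 mice it stood at 203, 204 and 201, the fourth of the 9, above every value of Ogdh (165, 175 and 169) and overlapping with Idh3a (207, 217 and 203). Mdh2 had the highest level, with means of 471 and 457 in controls and N-cre;Fox1 mice, followed by Cs (242 and 244) and Idh3a (208 and 209). Ogdh (166 and 170) and Sucla2 (164 and 166) overlapped within each genotype, so that their order was not resolved. Dlst had means of 124 and 124, Fh1 of 79.2 and 75.0, and Suclg2 of 15.2 and 15.2.

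**Figure D2:**
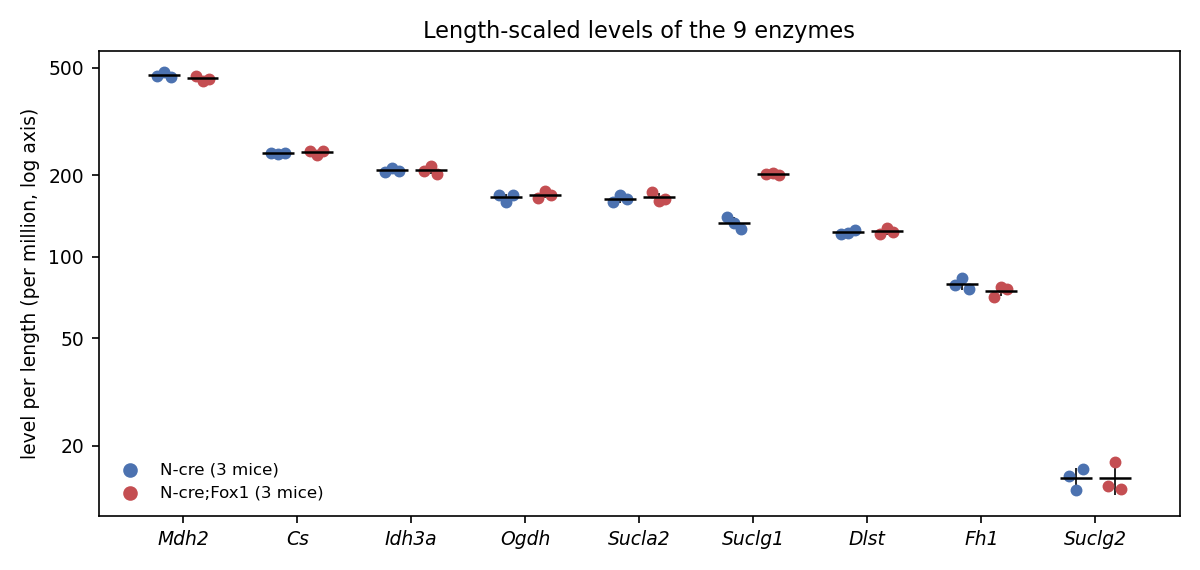
Levels per length of the 9 genes, as parts of 1000000 over all isoforms with an annotated length, on a log axis, ordered by the N-cre mean. Points are mice, horizontal bars means and vertical lines SD over 3 mice per genotype. Suclg1 lies between Sucla2 and Dlst in control mice and next to Idh3a in N-cre;Fox1 animals, and Suclg2 is the lowest gene in both.

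The 2 beta subunits were far apart in level. The ratio of Suclg2 to Sucla2, per length, was 0.0931 ± 0.0102 (SD) in controls and 0.0920 ± 0.0142 (SD over n = 3) in N-cre;Fox1 animals, a log2 difference of -0.02 (two-sided exact permutation test, p = 1, where 3 mice against 3 cannot give less than 0.1). Suclg2 thus made up 8.51% and 8.41% of the summed beta subunit RNA. The alpha subunit changed place relative to their sum. Suclg1 over the sum of Suclg2 and Sucla2 was 0.809, 0.727 and 0.710 in control mice and 1.09, 1.15 and 1.13 in N-cre;Fox1 animals, below 1 in the former and above 1 in the latter. Suclg1 over Cs went from 0.552 ± 0.0298 to 0.832 ± 0.0193 (SD, n = 3 each). Both ratios contain Suclg1 and are given with no test, and they describe RNA, not subunits in the enzyme.

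Isoforms of the other members were compared next, since a gene sum can hide opposite moves. Of the 57 isoforms, 38 had enough counts, 3 of Suclg1 and 35 of the other genes. Of the 35, 0 passed an adjusted p of 0.05, as did 0 of all 50556 isoforms tested (0% of them), and 2 had an unadjusted p under 0.05, which 4.78% of all isoforms had. DESeq2's Wald test called 215 of all isoforms, of which 0 belonged to these 8 genes, and limma-voom called 0. The 11 whose normalized counts averaged 1000 or more had log2 fold changes between -0.06 and 0.04. The 24 with lower counts ranged from -1.07 to 0.61.

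The isoforms with the lowest p were minor ones. Fh1-202, a retained intron isoform, had counts of 25.5, 36.3 and 19.4 in controls and 11.7, 15.3 and 11.5 in N-cre;Fox1 animals (log2 fold change -1.07 ± 0.364 SE, adjusted p 0.990). Mdh2-207, a short coding isoform, had 103, 142 and 165 against 108, 67.5 and 77.9 (log2 fold change -0.69 ± 0.264 SE, adjusted p 0.990). Counts of the groups were apart for 2 of the 35 isoforms, Fh1-202 and Mdh2-206, both lower in N-cre;Fox1 animals, and for 0 that were higher, beside 5.68% lower and 5.85% higher of all isoforms. In Mdh2-206, another retained intron isoform, the counts were 34.9, 53.9 and 37.5 against 24.4, 22.5 and 34.5. With so few counts these isoforms contributed little to their gene sums.

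Shares of a gene's counts held by its isoforms do not depend on library size. For the 8 members other than Suclg1, 17 isoforms with a share of at least 5% were compared with exact permutation tests over mice. The adjusted p ranged from 0.992 to 1.00 over these 17 permutation tests. Suclg2 was divided between Suclg2-201, with shares of 70.4%, 69.5% and 66.6% in controls and 61.8%, 71.3% and 67.7% in N-cre;Fox1 animals, and Suclg2-204, which took the rest. Sucla2 was divided between Sucla2-203, with 68.2% ± 4.64 and 68.3% ± 1.19 (SD, n = 3 each), and Sucla2-201, with 31.5% ± 4.71 and 31.4% ± 1.19 (SD, n = 3 each). Idh3a had 3 major isoforms, of which Idh3a-205 held 42.8% and 43.5%, Idh3a-201 held 37.3% and 35.9%, and the retained intron isoform Idh3a-203 held 19.1% and 19.8%. Fh1, Mdh2 and Dlst came mostly from 1 coding isoform each, at 92.6% and 93.8% for Fh1-201, 93.2% and 93.3% for Mdh2-201, and 93.5% and 92.5% for Dlst-201. Of the 17, only Cs-201 had no overlap between the genotypes, with a difference of 0.0261 percentage points in an isoform that held nearly all of the gene's counts (exact permutation p = 0.1, the smallest possible).

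**Figure D3:**
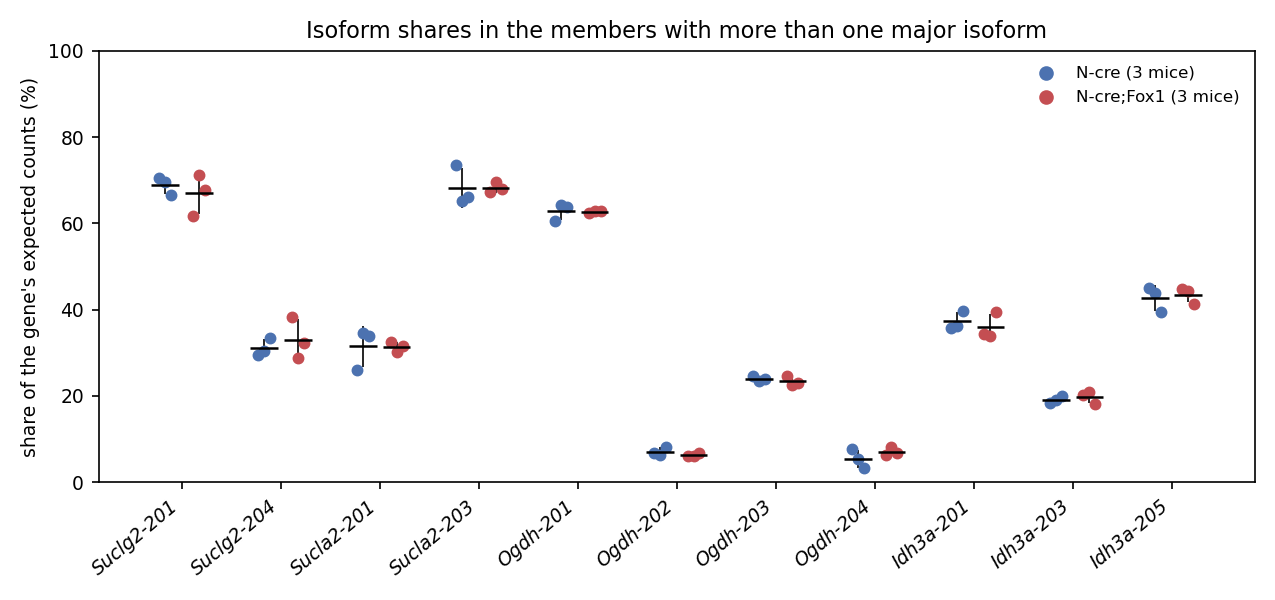
Share of the gene's expected counts held by each major isoform, in percent, for Suclg2, Sucla2, Ogdh and Idh3a, the members with several major isoforms. Points are mice, horizontal bars means and vertical lines SD over 3 mice per genotype. The genotypes overlap for each of the 11 isoforms shown.

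Ogdh is the member with annotated alternative coding exons near the start of its protein. Isoforms Ogdh-201 and Ogdh-204 carry a 103-nt exon 4, and Ogdh-202 and Ogdh-203 carry a 91-nt exon 4 in its place. Ogdh-203 adds a 45-nt exon 5 whose length is a multiple of 3. On the plus strand of chromosome 11 (mm10) they lie at chr11:6316978-6317080, chr11:6316765-6316855 and chr11:6324878-6324922. These exons separate Ogdh-201 and Ogdh-204 from Ogdh-202 and Ogdh-203, and Ogdh-203 from Ogdh-202. They do not tell Ogdh-201 and Ogdh-204 apart. The sequences below are from the GENCODE M21 transcripts, with the exon in capitals and 10 nt of the neighbouring exons in lower case:
Ogdh 103-nt exon: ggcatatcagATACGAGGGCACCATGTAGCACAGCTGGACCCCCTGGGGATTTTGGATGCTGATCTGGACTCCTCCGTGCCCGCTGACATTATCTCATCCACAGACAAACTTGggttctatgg
Ogdh 91-nt exon: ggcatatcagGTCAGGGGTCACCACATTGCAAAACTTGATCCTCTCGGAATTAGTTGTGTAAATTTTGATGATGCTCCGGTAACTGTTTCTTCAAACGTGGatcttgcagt
Ogdh 45-nt exon: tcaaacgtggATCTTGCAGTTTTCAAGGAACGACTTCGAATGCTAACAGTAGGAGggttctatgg

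The shares of these exons were compared with exact permutation tests, which for 3 mice against 3 cannot give a p below 0.1. Isoforms with the 103-nt exon made up 68.5%, 70.0% and 67.7% of the counts of these 4 isoforms in controls and 69.1%, 71.4% and 70.1% in N-cre;Fox1 animals (exact permutation p = 0.2, adjusted 0.4 over 2 tests). Among isoforms with the 91-nt exon, the 45-nt exon was carried by 78.6%, 78.5% and 74.3% in controls and 80.1%, 78.9% and 77.3% in N-cre;Fox1 animals (exact permutation p = 0.4, adjusted 0.4). The genotypes overlapped in both shares. These 2 tests were added after the isoforms had been seen. By isoform, Ogdh-201 held 62.9% and 62.7%, Ogdh-203 held 24.0% and 23.3%, Ogdh-202 held 7.12% and 6.28%, and Ogdh-204 held 5.44% and 7.07%.

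Rbfox proteins are RNA binding proteins that recognize GCATG, in introns to guide splicing and in 3' untranslated regions of mature transcripts. The 5 letters were searched on the transcript strand of the main isoform of each member. Suclg1-201 held 1 match, where 76.1% of 2887 tested isoforms within 10% of its length held at least 1 and the mean was 1.47. Suclg2-201 held 2 matches (89.4% of 4622 isoforms of like length held at least 1) and Sucla2-203 held 3 (85.3% of 4194). The matches of the 3 ligase subunits are shown with GCATG in capitals, named by the position of the G in the transcript, and come from GENCODE M21 transcripts:
Suclg1-201, nt 1252, coding, chr6:73275352-73275356, plus strand: gtggttgtcaGCATGtcccccgcac
Suclg2-201, nt 929, coding, chr6:95586979-95586983, minus strand: caggcccagcGCATGgcagaaaatc
Suclg2-201, nt 1639, 3' untranslated, chr6:95475017-95475021, minus strand: atgaagaaggGCATGtccctgacta
Sucla2-203, nt 263, coding, chr14:73560470-73560474, plus strand: tgtttaacaaGCATGgactacaagt
Sucla2-203, nt 308, coding, chr14:73560515-73560519, plus strand: ccctttcgctGCATGaatacttgag
Sucla2-203, nt 952, coding, chr14:73590763-73590767, plus strand: aaggtgttgtGCATGgatgcaaaga

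By raw count of matches, Suclg1 lay within the range of the other members, whose main isoforms differ in length. Ogdh-201 held 5 matches and Cs-201 held 6, where the means over isoforms of like length were 3.96 and 2.81. Idh3a-205 held 4, Dlst-201 held 3 and Fh1-201 held 2, beside means of 2.46, 2.66 and 2.53. Mdh2-201 held 0, where 74.5% of 2725 isoforms of like length held at least 1. Dlst-201, Idh3a-205, Fh1-201 and Cs-201 had matches in the 3' untranslated region. The 3 alternative Ogdh exons held 0 matches each. Introns were not searched, and a match in letters is not a bound site.

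The genes around the 9 members were described from 5 further lists with 60 genes, all of which were tested. In edgeR's quasi-likelihood test, 0 of the 60 passed an adjusted p of 0.05, beside 0.0264% of all genes. An unadjusted p under 0.05 was found for 3, 2 higher and 1 lower, beside 3.59% and 2.60% of all genes. Counts of the groups were apart in 5 genes that were higher and in 3 that were lower, as in 6.06% and 6.11% of all genes. The median log2 fold change of the 60 was -0.01, with 26 above and 34 below 0, where all genes had 9460 above and 9464 below 0. The 60 values ranged from -0.21 to 0.28.

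The 9 other cycle genes, among them Idh3b, Idh3g and the 4 succinate dehydrogenase subunits Sdha, Sdhb, Sdhc and Sdhd, had a median log2 fold change of -0.01 and ranged from -0.09 to 0.03. The lowest was Ogdhl, a brain paralog of Ogdh, with counts of 5684, 5097 and 5124 in controls and 5232, 4865 and 4859 in N-cre;Fox1 animals (log2 fold change -0.09 ± 0.0497 SE, adjusted p 0.845). Idh3g, a regulatory subunit of the isocitrate dehydrogenase that holds Idh3a, had counts of 6420, 6458 and 6463 against 6359, 6135 and 6114, lower without overlap, at a log2 fold change of -0.06 and an adjusted p of 0.857. Succinate dehydrogenase uses the product of the ligase, and its subunits had log2 fold changes between -0.02 and 0.03.

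The 8 genes of other enzymes that make or use succinyl-CoA or succinate had a median log2 fold change of 0.02 and a range from -0.07 to 0.07. Mut and Mcee, which lead from propionyl-CoA to succinyl-CoA, gave 0.07 and 0.07, and Oxct1, which uses succinyl-CoA to activate ketone bodies, gave -0.01. Pccb, a subunit of propionyl-CoA carboxylase, was higher without overlap at means of 2503 and 2574 (log2 fold change 0.04, adjusted p 0.925). Aldh5a1, which makes succinate from succinic semialdehyde in the breakdown of GABA, gave -0.07 (adjusted p 0.928).

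Pyruvate entry was covered by 13 genes, with a median of -0.02. Pdp2, a pyruvate dehydrogenase phosphatase, had the lowest unadjusted p among them at 0.0379 (adjusted p 0.799), with means of 515 in controls and 446 in N-cre;Fox1 animals and a log2 fold change of -0.21. The kinase Pdk2 was lower without overlap at a log2 fold change of -0.04 (adjusted p 0.907). The 16 genes of the malate-aspartate shuttle, glutamate entry and cytosolic or NADP-linked forms had a median of -0.01. Glud1, the glutamate dehydrogenase that feeds 2-oxoglutarate into the cycle, stood at means of 11783 and 12589 without overlap (log2 fold change 0.10, unadjusted p 0.0136, adjusted p 0.758).

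Genes of general mitochondrial proteins, none of them from the mitochondrial genome, made up the last list. Its 14 genes had a median of 0.01, a range from -0.05 to 0.10, and summed counts of 131792 to 136897 in controls and 131950 to 136780 in N-cre;Fox1 animals. The sums of the genotypes overlapped. Hspd1, the mitochondrial chaperonin, had means of 8504 and 9138 without overlap (log2 fold change 0.10, unadjusted p 0.0118, adjusted p 0.726).

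**Figure D4:**
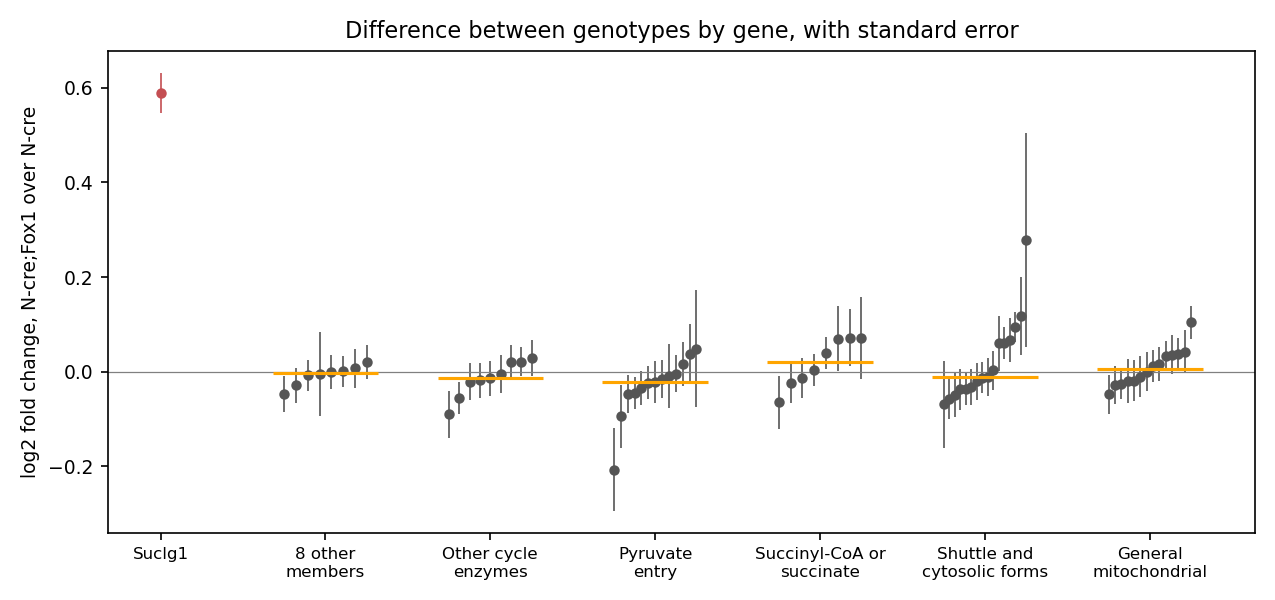
Log2 fold change of N-cre;Fox1 over N-cre for Suclg1, the 8 other members and the 60 genes of 5 metabolic lists, each sorted by value. Points are genes, vertical lines standard errors from edgeR, and orange bars list medians. Suclg1, chosen by its value, stands at 0.59, the 60 list genes reach from -0.21 to 0.28 (Slc25a13), and the list medians lie between -0.02 and 0.02.

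Cell type markers were read beside the Suclg1 difference. Among the 6 astrocyte markers, 4 had higher counts without overlap in N-cre;Fox1 animals and an unadjusted p under 0.05, where 6.06% of all genes were higher without overlap and 3.59% were higher at an unadjusted p under 0.05. In edgeR's test 0 of the 6 passed the adjusted threshold, beside 0.0264% of all genes. Gfap gave a log2 fold change of 0.38, Aqp4 of 0.21, Slc1a2 of 0.12 and Gja1 of 0.10, while Aldh1l1 and Slc1a3 gave -0.14 and -0.02. The summed astrocyte counts were 181617 to 188773 in controls and 193936 to 211638 in N-cre;Fox1 animals. Abundant markers weigh most in these sums. In controls and N-cre;Fox1 animals the means were 107052 and 116093 for Slc1a2, 31525 and 31108 for Slc1a3, and 23270 and 30338 for Gfap. The part of the astrocyte markers in the Suclg1 result was not tested. The summed counts overlapped between the genotypes for neurons (500565 to 525233 and 469618 to 518703), oligodendrocytes (231426 to 260893 and 225223 to 274332), microglia (13959 to 14327 and 13612 to 14738) and endothelium (8104 to 8865 and 8082 to 9163). Of the 6 oligodendrocyte markers 1, Mobp, was higher without overlap (means of 36825 and 41545, log2 fold change 0.17, unadjusted p 0.0171, adjusted p 0.769), and its part in the Suclg1 result was not tested either. Of the neuronal, microglial and endothelial markers 0 were without overlap. No marker of these lists was at 0.

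The genes most like Suclg1 across the 6 mice were Tmsb10, Sspn and Aspg. Likeness was the distance between log2 values centred on each gene's mean, over 13719 genes whose counts averaged 100 or more, and it is a description that the genotype difference itself dominates. Tmsb10, which encodes an actin monomer binding thymosin, was the nearest at a distance of 0.167, with counts of 2803, 2660 and 2548 in controls and 4129, 4552 and 4031 in N-cre;Fox1 animals. Sspn, the sarcospan of the dystrophin complex, followed at 0.187 with means of 688 and 989. Aspg, an asparaginase, was next at 0.267, with counts of 128, 108 and 115 against 154, 153 and 162. Tmsb10 and Sspn lie on chromosome 6 like Suclg1, and Aspg lies on chromosome 12. The 8 other members were at distances from 0.711 (Ogdh) to 0.80 (Suclg2), in places 3965 to 9505 of that order.

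Since Suclg1, Suclg2 and the transgene share chromosome 6, the genes next to the ligase genes were read as well. Suclg1 lies 39.8 Mb and Suclg2 17.3 Mb from Gt(ROSA)26Sor, and they are 22.2 Mb apart. Of 42 annotated genes within 1 Mb of Suclg1, 22 were tested, and all of these start at lower coordinates than Suclg1. Their median log2 fold change was 0.09, with 14 above and 8 below 0, where all genes had 9460 above and 9464 below 0. Some values above 0 had low counts and wide errors, such as Gm37969 at 0.54 ± 0.358 (SE). So did Sh2d6 below 0, at -0.12 ± 0.435 (SE). Tmsb10, 290 kb away, was the 1 gene with a p adjusted over all genes under 0.05 in edgeR, at a log2 fold change of 0.66 ± 0.0526 (SE). Its adjusted p was 0.00146, or 0.15 without N-cre replicate 2. It was among the 5 genes of the whole table inside that threshold. Including Tmsb10, 3 of the 22 had an unadjusted p under 0.05, all of them higher, beside 3.59% of all genes. The other two were Retsat and Mat2a, with log2 fold changes of 0.24 (adjusted p 0.777) and 0.13 (adjusted p 0.782) and counts that overlapped. The nearest tested gene, Dnah6 at 26.7 kb, gave 158, 180 and 285 in controls and 256, 550 and 229 in N-cre;Fox1 animals. Its log2 fold change was 0.74 ± 0.452 (SE), with an adjusted p of 0.889 in edgeR. Its highest mice, N-cre replicate 3 and N-cre;Fox1 replicate 2, were also the highest of their genotypes for the choroid plexus markers. A link between them was not tested. Around Suclg2, 6 of 23 annotated genes were tested and 0 passed the adjusted threshold, beside 0.0264% of all genes. Gm7838 alone had an unadjusted p under 0.05 there, 1 of 6 lower beside 2.60% of all genes, with means of 26.6 and 17.1.

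**Figure D5:**
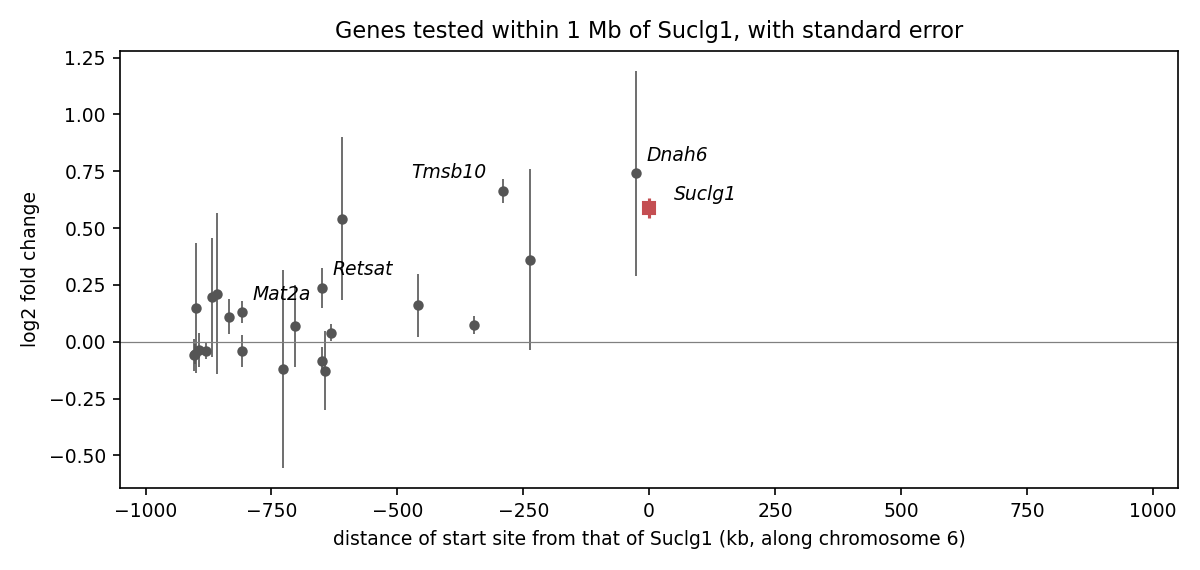
Log2 fold change of N-cre;Fox1 over N-cre for the 22 tested genes within 1 Mb of Suclg1, against the distance of their start sites from that of Suclg1 in kb. Points are genes, the red square is Suclg1, and vertical lines are standard errors from edgeR. Tmsb10 at -290 kb stands at 0.66 with a small error, while genes between it and Suclg1 have errors that reach 0.397 and 0.452.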

How the data were processed

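Hippocampal total RNA of 6 mice was sequenced from stranded libraries in pairs. After trimming with Cutadapt 1.18 and mapping with STAR 2.5.2b on mm10, the authors quantified isoforms with RSEM 1.3.0 and deposited expected counts of 133944 isoforms, not normalized and not filtered. An expected count can be a fraction, because RSEM divides a read pair that matches several isoforms. Groups came from the sample labels.

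Expected counts were rounded per isoform, or summed by gene symbol and rounded. Low counts were removed with filterByExpr (minimum count 10, minimum total 15). Both genotypes entered edgeR 4.0.16 (R 4.3.3) with TMM normalization and the robust quasi-likelihood test with genotype as the only term. P-values were adjusted by Benjamini-Hochberg over all 18924 genes or 50556 isoforms, at a threshold of 0.05. Shares and ratios were compared with two-sided exact permutation tests (SciPy 1.17.1). Intervals are 95% and come from the edgeR standard errors. Positions, lengths and sequences came from GENCODE M21 on mm10, which matched 130826 isoforms and all 57 of the members. The spread between 3 mice, each taken as a separate animal, limits the precision, and counting error, which was not measured apart from it, adds to the spread of isoforms with few counts.

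Members and gene lists were chosen with earlier results of these data known. Named genes were the members, at most 4 per list by lowest p, the 3 genes nearest to Suclg1 and neighbours with an unadjusted p under 0.05. Other genes named are the ends of a range or examples chosen after their values were seen. Alternatives were DESeq2 size factors, DESeq2's own Wald test (1.42.0), limma-voom (limma 3.58.1), no filter, a term for Xist, a replicate block and each mouse left out. The authors' EBSeq analysis was not repeated.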

Additional observations from a re-analysis of the deposited data

How the results depend on the processing

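The Suclg1 log2 fold change was 0.59 under each alternative normalization, filter, tool and term, and 0.55 to 0.63 with each mouse left out (0.55 to 0.63 for Suclg1-201). Under these alternatives 0 of the 8 other genes, 0 of their isoforms and 0 of the 60 list genes passed the threshold. The genes called over the whole table, 5 in the reported fit, were 45 with no filter, 50 with DESeq2's Wald test, 11 with a term for Xist and 2 to 29 with each mouse left out (2 without N-cre replicate 2, 3 without N-cre replicate 3 or N-cre;Fox1 replicate 3, 29 without N-cre;Fox1 replicate 1). Isoforms called were 0, and 10 with no filter and 215 with the Wald test; the cause was not tested. The Cs value changed sign within rounding, to 0.0011 with DESeq2 size factors, 0.0043 with no filter and 0.0010 with the Wald test. Signs near 0 also turned with single mice left out, over ranges of -0.09 to 0.05 for Suclg2, -0.03 to 0.04 for Sucla2, -0.01 to 0.01 for Dlst, -0.02 to 0.01 for Idh3a, -0.04 to 0.0030 for Fh1, -0.01 to 0.03 for Cs and -0.146 to 0.051 for the log2 ratio of Suclg2 to Sucla2. Isoform shares that turned ranged, in percentage points, from -4.05 to 0.709 for Suclg2-201, -0.709 to 4.05 for Suclg2-204, -2.80 to 1.41 for Sucla2-201, -1.50 to 2.71 for Sucla2-203, -1.46 to 0.471 for Ogdh-201, -0.914 to 1.92 for Idh3a-205, -0.413 to 0.626 for Mdh2-201 and -0.332 to 0.795 for Mdh2-203. Correlations of gene deviations between same-numbered mice were 0.378, -0.0951 and -0.211. Between N-cre replicate 3 and N-cre;Fox1 replicate 2, the mice with the highest choroid plexus markers, the value was 0.439. Deviations from means of 3 mice depend on each other, so these values cannot decide whether the numbers pair the mice. With the replicate number as a block Suclg1 gave 0.59, 5 genes were called and 0 of the other members. Levels per length rest on annotated lengths, and shares of isoforms on how RSEM divided reads.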
